A study of Mus musculus with 36 samples.

Results

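Transcript levels of 10 antioxidant and metallothionein genes were examined in hippocampal slices of mice. The genes were Hmox1, Slc7a11, Gclc, Gclm, Txnrd1, Srxn1, Nqo1, Sod2, Mt1 and Mt2. They were found by matching the Ensembl identifiers of the deposited gene table to these symbols, and each symbol matched 1 of the table's 55421 genes. The matching itself uses no measured values, but the 10 genes were chosen with earlier results of these data known. Counts of them called are therefore no independent test of the set. All 10 passed the filter on low counts, which kept 19477 genes.

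Slices came from wild-type C57BL/6 mice (WT) and from T41B mice, line 41, in which a Thy1 cassette drives human APP bearing the London and the Swedish mutation. Expression of that transgene is therefore set by a promoter used mainly by neurons. The mice were gavaged for 3 months, between 13 and 16 months of age, with vehicle (VEH) or with BD10-2, which partially activates TrkB and TrkC, receptors for neurotrophins. Right hippocampal slices were then given theta-burst stimulation (STIM), an electrical pattern used to induce long-term potentiation, or a sham procedure of the same length, and were frozen at once. All groups, sham included, thus consist of tissue that had been dissected and kept as slices. After libraries with the same labels had been summed, there were 32 samples from 18 mice. The VEH groups held 4 WT sham, 4 WT STIM, 4 T41B sham and 4 T41B STIM samples, and the BD10-2 groups held 3 WT sham, 3 WT STIM, 5 T41B sham and 5 T41B STIM samples. Both slices of a mouse were sequenced for 14 mice.

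Many antioxidant genes are controlled by NRF2, a transcription factor that KEAP1 marks for degradation until oxidants or electrophiles modify KEAP1, after which NRF2 enters the nucleus and binds antioxidant response elements. Its targets make glutathione, recycle thioredoxin, break down heme and reduce quinones. Metallothioneins are small cysteine-rich proteins that bind zinc and copper. Their genes are induced by the zinc sensor MTF1 through metal response elements, and also by glucocorticoids and inflammatory signals. In brain, Mt1 and Mt2 are made largely by astrocytes, and Hmox1 is readily induced in microglia and astrocytes.

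Promoter sequences are shown for Mt2 and Mt1, which lie side by side, and for Gclm and Txnrd1, in which the letters of an antioxidant response element were found upstream. Each run holds the 250 bases before a RefSeq gene start, 5′ to 3′ on the gene's strand, from RefSeq on GRCm38.p6. Capitals mark matches on either strand to the antioxidant response element TGACNNNGC, the metal response element TGCACNC or TGCGCNC, or the AP-1 site TGANTCA. The Mt2 run is chr8:94172368-94172617, the Mt1 run chr8:94178839-94179088, the Gclm run chr3:122245307-122245556 and the Txnrd1 run chr10:82858956-82859205, all on the + strand.
Mt2: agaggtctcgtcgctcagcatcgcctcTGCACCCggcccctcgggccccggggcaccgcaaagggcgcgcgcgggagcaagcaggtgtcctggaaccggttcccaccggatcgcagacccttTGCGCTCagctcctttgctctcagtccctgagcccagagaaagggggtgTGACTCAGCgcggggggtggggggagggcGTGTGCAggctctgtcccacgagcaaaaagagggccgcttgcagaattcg
Mt1: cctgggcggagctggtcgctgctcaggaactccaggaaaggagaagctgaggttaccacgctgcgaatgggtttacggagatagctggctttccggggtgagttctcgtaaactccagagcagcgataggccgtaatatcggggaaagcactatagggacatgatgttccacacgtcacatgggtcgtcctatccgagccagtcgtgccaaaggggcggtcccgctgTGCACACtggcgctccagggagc
Gclm: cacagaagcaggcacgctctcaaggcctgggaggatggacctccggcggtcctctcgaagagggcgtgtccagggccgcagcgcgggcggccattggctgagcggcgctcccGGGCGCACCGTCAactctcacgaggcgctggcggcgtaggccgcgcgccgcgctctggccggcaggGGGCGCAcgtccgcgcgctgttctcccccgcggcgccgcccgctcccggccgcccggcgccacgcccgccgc
Txnrd1: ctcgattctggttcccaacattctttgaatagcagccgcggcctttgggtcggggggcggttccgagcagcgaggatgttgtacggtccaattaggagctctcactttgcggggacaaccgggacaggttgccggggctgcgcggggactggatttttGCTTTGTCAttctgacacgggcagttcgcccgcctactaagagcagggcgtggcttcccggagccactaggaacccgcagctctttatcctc
Mt2 held metal response letters 223, 128 and 50 bases before its start, and letters shared by an antioxidant response element and an AP-1 site 79 bases before it. Mt1 held metal response letters 23 bases before its start, and Gclm held them 138 and 72 bases before. The antioxidant response letters began 134 bases before the Gclm start, where they overlap a metal response match, and 92 bases before the Txnrd1 start. Windows reaching 50 bases past the start held 4 metal response matches for Mt2, 3 for Mt1 and 3 for Gclm. Srxn1 had 2 AP-1 matches and 1 metal response match before its start. Its antioxidant response letters began at base 29 counted from the start. Slc7a11, Nqo1 and Sod2 held none of the 3 motifs, nor did the windows at the 2 other RefSeq starts of Txnrd1. Among 32851 such windows, 12.4% held the antioxidant response letters, 25.7% the metal response letters and 7.81% the AP-1 letters, and 1.97% held 3 or more metal response matches. A match describes letters and is not a measured binding site. The table matched 8 of the 10 genes, and Hmox1 and Gclc are named only.

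Library totals ran from 11597555 to 28125842 counts, with a median of 18082400. The labelled genotype was checked with Thy1, whose cassette drives the transgene: it was 255 to 400 CPM (counts scaled to a library total of 1000000) in the 16 WT libraries and 880 to 2414 CPM in the 20 T41B libraries. Neuronal markers summed to 4911 CPM or more in every sample, and astrocyte and oligodendrocyte markers were also abundant, as in brain tissue. Choroid plexus markers exceeded 10 times their median in 3 samples: the stimulated slices of WT VEH Mouse1509 (1237 CPM) and Mouse1513 (1018 CPM), and the sham slice of T41B VEH Mouse1553 (555 CPM). The 8 microglial markers summed to 251 to 1013 CPM in sham and 110 to 599 CPM in STIM slices, and to 110 to 340.4 CPM in WT and 293 to 1013 CPM in T41B slices. Astrocyte markers summed to 6907 to 9743 CPM in sham and 7706 to 12921 CPM in STIM slices. Markers of peripheral myeloid cells summed to at most 1.38 CPM. In such bulk samples, a lower level from fewer cells of a type and from less RNA per cell cannot be told apart.

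Per kilobase of exon, metallothioneins were the most abundant of the 10 genes in WT VEH sham slices. On this length-scaled level, Mt2 stood at 117 and Mt1 at 79.3 CPM per kb. Sod2 (16.8), Srxn1 (14.4), Gclc (11), Txnrd1 (7.09), Gclm (5.56), Slc7a11 (3.38), Hmox1 (2.25) and Nqo1 (1.21) followed. In WT VEH STIM slices Hmox1, next to last in sham slices, stood at 40.3 CPM per kb, next in order but well below Mt2 at 261 and Mt1 at 128, while Nqo1 remained last at 2.03. Exon lengths are those of GENCODE M21, and RNA of shorter isoforms would shift these levels. The order of Mt2 and Mt1 rests on these lengths, 588 bases for Mt2 and 1246 for Mt1, which covers the whole Mt1 gene. In CPM the order was reversed: Mt1 was 98.8 and Mt2 68.6 CPM in WT VEH sham slices. In WT VEH STIM slices Mt1 was 160 and Mt2 153 CPM.

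**Figure D1:**
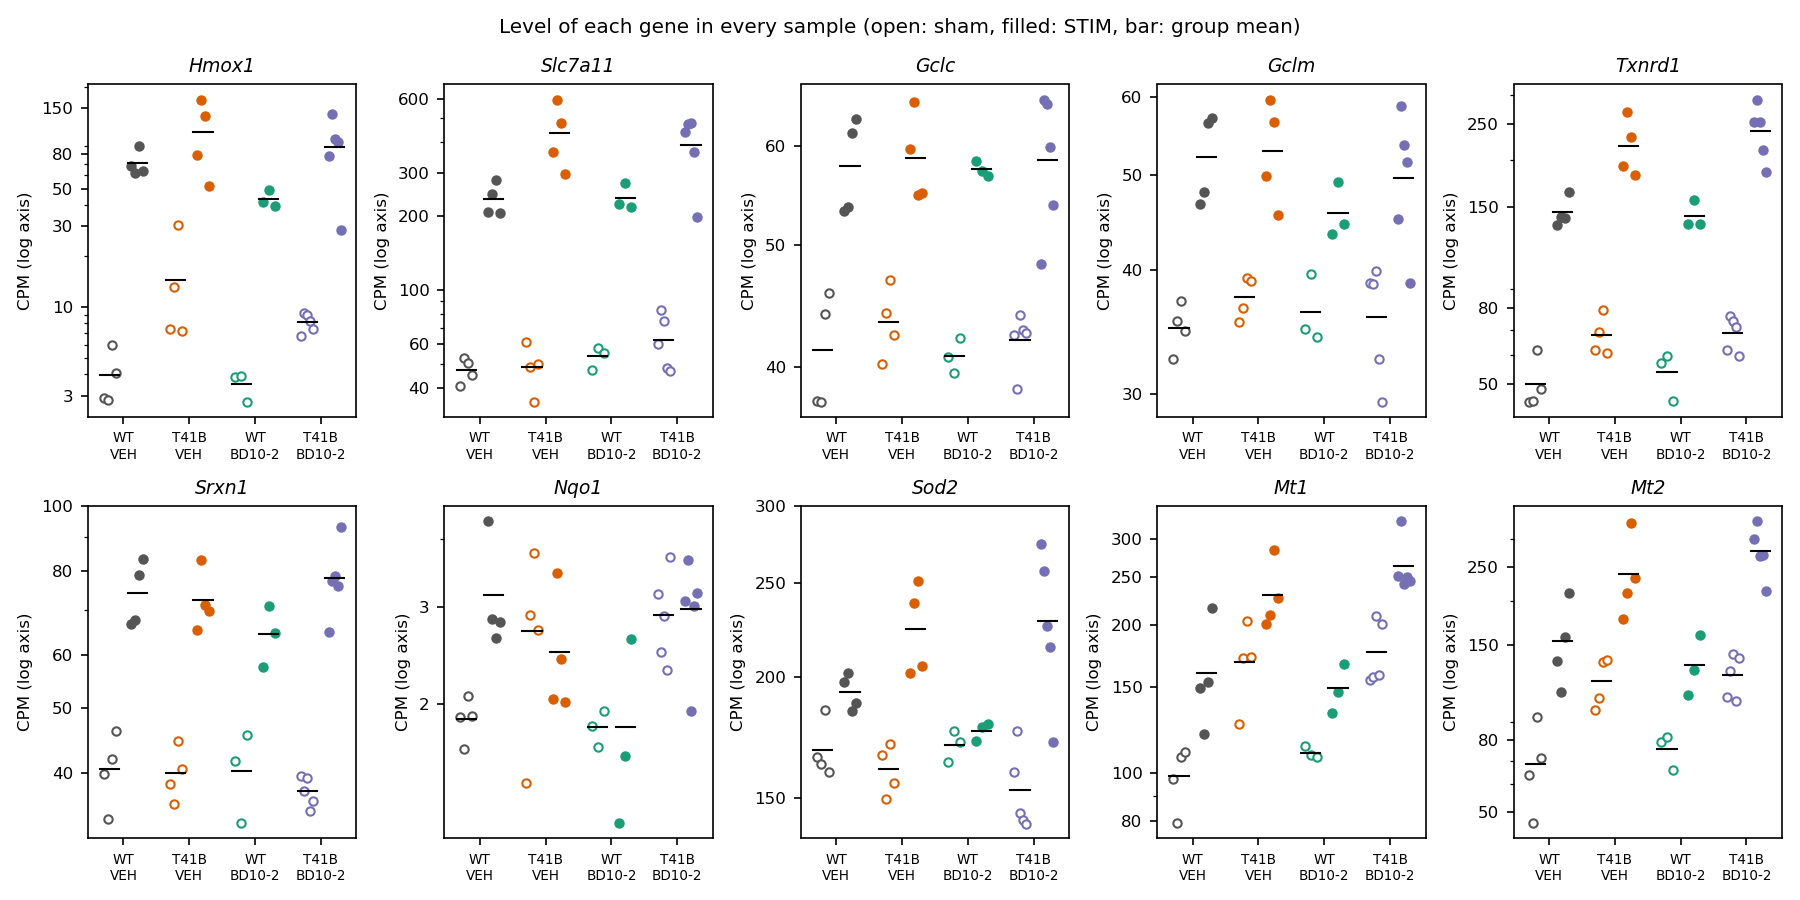
CPM of each gene in every sample, on log axes that differ between panels; open points are sham slices, filled points stimulated slices and black bars group means, for WT and T41B mice under VEH or BD10-2. Sham and STIM samples separate fully for Slc7a11, Gclc, Txnrd1 and Srxn1, Mt1 and Mt2 sit higher in T41B groups, and Nqo1 lies between 1.22 and 4.31 CPM throughout.

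The first comparison asked how stimulated slices differed from sham slices within each genotype and treatment. Most of the 10 genes, which were chosen with earlier results of these data known, rose and none was called lower. In WT VEH slices 8 of 10 were called higher by edgeR at an adjusted p under 0.05, where 8.21% of all tested genes passed as higher and 4.1% as lower. In T41B VEH slices 9 of 10 were higher, against 11.7% higher and 9.82% lower among all genes. With BD10-2, 6 of 10 were higher in WT slices (6.29% of all genes higher, 2.58% lower) and 9 of 10 in T41B slices (13.3% higher, 9.52% lower). The median log2 fold change of the 10 genes was 0.81, 0.67, 0.58 and 0.82 in WT VEH, T41B VEH, WT BD10-2 and T41B BD10-2 slices, beside -0.01, -0.05, -0.01 and -0.04 over all genes. Hmox1, Slc7a11, Gclc, Txnrd1, Srxn1 and Mt2 were higher in all 4 comparisons, Gclm and Mt1 in 3, and Sod2 in the 2 comparisons within T41B mice. Nqo1 passed in none.

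**Figure D2:**
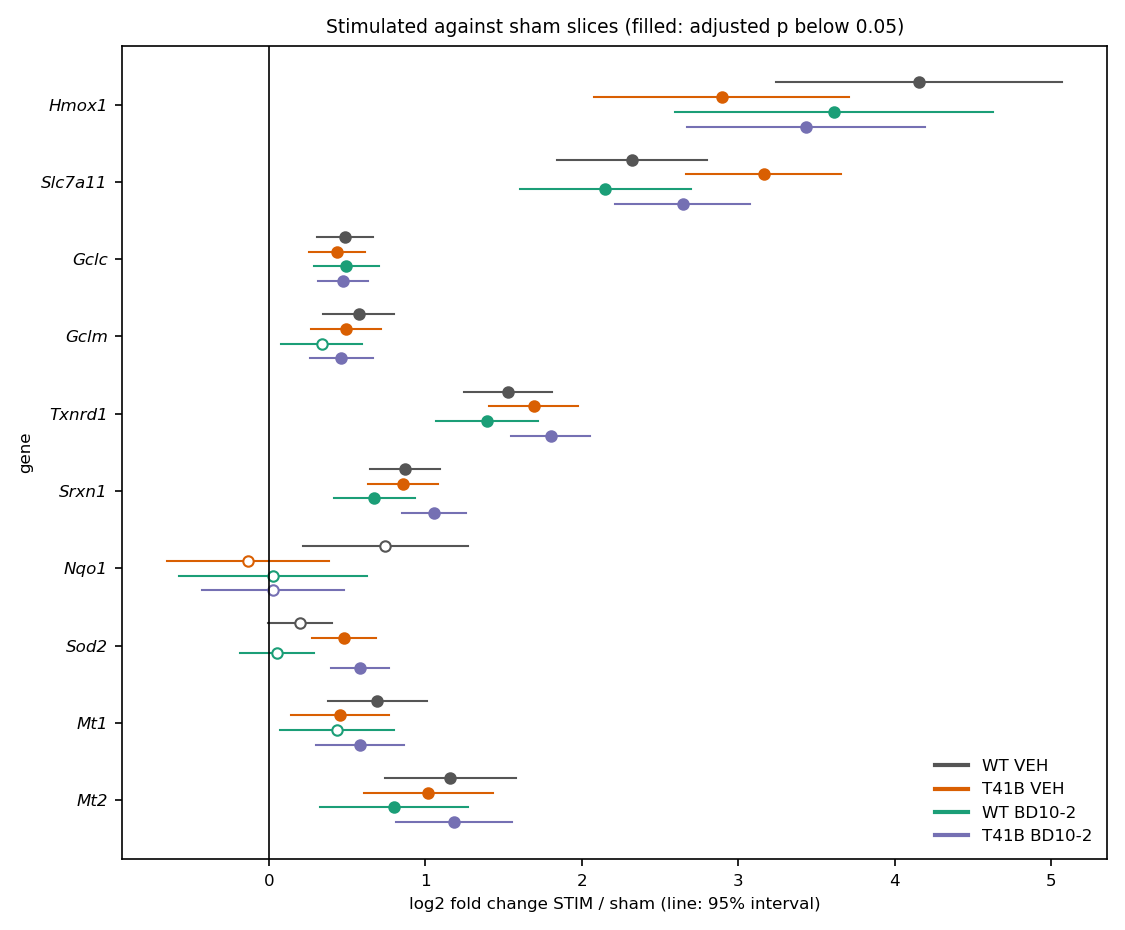
Log2 fold change of stimulated over sham slices for each gene, with 95% intervals, in the 4 combinations of genotype and treatment; filled points have an edgeR adjusted p below 0.05. Hmox1 (2.90 to 4.16) and Slc7a11 (2.15 to 3.16) lie farthest to the right, Gclc near 0.5, and Nqo1 has open points only.

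Hmox1 encodes heme oxygenase 1, which breaks heme down to biliverdin, iron and carbon monoxide (ENSMUSG00000005413, chr8:75093621-75100589, + strand). It had the largest log2 fold change of the 10 genes in 3 of the 4 comparisons, and Slc7a11 had the largest in T41B VEH mice. In WT VEH mice the sham slices held 2.91, 2.81, 5.97 and 4.1 CPM and the STIM slices 67.8, 62.2, 89.1 and 63.3 CPM. The stimulated slice thus held 14.9 to 23.3 times the Hmox1 of the sham slice of the same mouse. The group comparison, which is not paired by mouse, gave a log2 difference of 4.16 (SE 0.45, adjusted p = 8.89e-08 by edgeR). T41B VEH sham slices held 7.38, 13.1, 30.5 and 7.19 CPM, and the STIM slices 79.3, 168, 134 and 52.2 CPM. The highest sham value, 30.5 CPM, belongs to Mouse1553, the sham slice with high choroid plexus markers, and it still lay below every STIM slice of that group (log2 difference 2.90, SE 0.40, adjusted p = 2.95e-06 by edgeR). With BD10-2, WT slices held 3.84, 3.92 and 2.76 CPM after sham and 41.6, 49.3 and 39.6 CPM after stimulation (log2 difference 3.61, SE 0.50, adjusted p = 8.93e-06 by edgeR). In T41B BD10-2 mice, sham slices held 6.73, 9.28, 9.01, 8.33 and 7.47 CPM and STIM slices 78.5, 139, 98.9, 95.1 and 28.5 CPM (log2 difference 3.43, SE 0.37, adjusted p = 2.72e-08 by edgeR). The low STIM value of 28.5 CPM was from Mouse1592, whose 2 libraries held 21.6 and 33.3 CPM before scaling, so both were below the other mice of the group. Sham and STIM groups did not overlap in any of the 4 comparisons.

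Slc7a11 encodes xCT, the cystine importer that feeds glutathione synthesis and releases glutamate in exchange (ENSMUSG00000027737, chr3:49892526-50443614, - strand). Its 16 sham samples ranged from 35.0 to 83.1 CPM and its 16 STIM samples from 199 to 597 CPM, with no overlap. In WT VEH mice it was 40.4, 52.7, 50.3 and 44.9 CPM in sham and 208, 247, 281 and 205 CPM in STIM slices (log2 difference 2.32, SE 0.23, adjusted p = 3.3e-08 by edgeR). T41B VEH mice had a similar sham range, 61.1, 48.4, 35 and 49.8 CPM, and STIM values of 364, 597, 480.2 and 296 CPM (log2 difference 3.16, SE 0.24, adjusted p = 2.21e-10 by edgeR). Every T41B VEH stimulated slice was thus above every WT VEH stimulated slice. In WT BD10-2 mice the sham values were 47.3, 57.9 and 55.4 CPM and the STIM values 224, 272 and 217 CPM (log2 difference 2.15, SE 0.27, adjusted p = 1.7e-06 by edgeR). T41B BD10-2 slices held 59.9, 83.1, 74.8, 47.8 and 46.6 CPM after sham and 439, 474, 479, 363 and 199 CPM after stimulation (log2 difference 2.64, SE 0.21, adjusted p = 9.15e-11 by edgeR). The lowest of these STIM values was again that of Mouse1592.

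Gclc and Gclm encode the catalytic and modifier subunits of glutamate-cysteine ligase, the first and rate-limiting enzyme of glutathione synthesis (Gclc: ENSMUSG00000032350, chr9:77754535-77794485, + strand; Gclm: ENSMUSG00000028124, chr3:122245557-122270732, + strand). Their differences were much smaller than that of the cystine importer. Gclc lay between 37.5 and 46.9 CPM in the 16 sham samples and between 48.4 and 65.3 CPM in the 16 STIM samples. Its log2 fold changes of 0.49, 0.43, 0.49 and 0.47 in WT VEH, T41B VEH, WT BD10-2 and T41B BD10-2 mice were close to one another, with edgeR adjusted p from 3.17e-05 to 0.00136. Gclm lay between 29.4 and 39.9 CPM in sham and between 38.9 and 59.6 CPM in STIM samples. It rose in WT VEH (log2 difference 0.57, SE 0.11, adjusted p = 0.000518 by edgeR), T41B VEH (log2 difference 0.49, SE 0.11, adjusted p = 0.00155 by edgeR) and T41B BD10-2 mice (log2 difference 0.46, SE 0.10, adjusted p = 0.000766 by edgeR). In WT BD10-2 mice Gclm was 45.8 ± 2.99 CPM in STIM and 36.3 ± 2.97 CPM (SD over 3 mice) in sham slices, without overlap, but did not pass the test (log2 difference 0.34, SE 0.13, adjusted p = 0.098 by edgeR). Both subunits were higher in the stimulated slice in 14 of 14 mice with both slices, with median within-mouse ratios of 1.42 for Gclm and 1.42 for Gclc.

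Txnrd1 encodes cytosolic thioredoxin reductase, the selenoprotein that keeps thioredoxin reduced (ENSMUSG00000020250, chr10:82833951-82897712, + strand). It rose in all 4 comparisons, and no STIM sample fell inside the sham range of 44.9 to 79.1 CPM. WT VEH slices held 44.9, 45.2, 62.1 and 48.7 CPM after sham and 134, 141, 140.0 and 164 CPM after stimulation (log2 difference 1.53, SE 0.14, adjusted p = 5.53e-09 by edgeR). In T41B VEH slices the values were 61.9, 69.1, 79.1 and 60.9 CPM and 193, 269, 232 and 182 CPM (log2 difference 1.69, SE 0.14, adjusted p = 5.3e-10 by edgeR). The STIM values of T41B VEH mice lay wholly above those of WT VEH mice. WT BD10-2 slices held 57.3, 59.6 and 45.1 CPM and 134, 157 and 135 CPM (log2 difference 1.39, SE 0.16, adjusted p = 4.59e-07 by edgeR), and T41B BD10-2 slices 61.9, 76.4, 73.9, 71.5 and 59.6 CPM and 253, 291, 253, 213 and 185 CPM (log2 difference 1.8, SE 0.12, adjusted p = 9.13e-12 by edgeR). Within mice the STIM to sham ratio of Txnrd1 was narrow, from 2.26 to 3.94 with a median of 3.11.

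Srxn1 encodes sulfiredoxin, which repairs overoxidized peroxiredoxins (ENSMUSG00000032802, chr2:152105516-152111376, + strand). Sham samples held 33.6 to 46.2 CPM and STIM samples 57.5 to 93.0 CPM, again without overlap. The log2 fold change of Srxn1 was 0.87 (SE 0.11, adjusted p = 1.55e-06 by edgeR) in WT VEH, 0.86 (SE 0.11, adjusted p = 1e-06 by edgeR) in T41B VEH, 0.67 (SE 0.13, adjusted p = 0.000531 by edgeR) in WT BD10-2 and 1.05 (SE 0.10, adjusted p = 1.7e-09 by edgeR) in T41B BD10-2 mice. Without Mouse1571 the WT BD10-2 value was 0.48 and no longer passed (adjusted p = 0.0516 by edgeR). Mouse1592, lowest of its group for Hmox1 and Slc7a11 after stimulation, had the highest Srxn1 value of all samples, 93.0 CPM.

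Nqo1 encodes a quinone reductase that is often used as an indicator of NRF2 activity (ENSMUSG00000003849, chr8:107388225-107403206, - strand). It was the least abundant of the 10 genes, with 23 to 123 counts per sample. WT VEH slices held 1.9, 1.66, 2.07 and 1.91 CPM after sham and 4.31, 2.86, 2.64 and 2.83 CPM after stimulation. These 2 groups did not overlap, but the difference did not pass (log2 difference 0.74, SE 0.26, adjusted p = 0.0566 by edgeR). It passed with mouse as a replicate block (0.73, adjusted p = 0.0264 by edgeR), with batch as a term (0.73, adjusted p = 0.0198 by edgeR) and with DESeq2 (0.75, adjusted p = 0.0408). The differences were -0.13 (95% interval -0.65 to 0.38) in T41B VEH, 0.02 (95% interval -0.57 to 0.62) in WT BD10-2 and 0.03 (95% interval -0.43 to 0.48) in T41B BD10-2 mice on the log2 scale. Nqo1 was higher in the stimulated slice in 8 of 14 mice, with within-mouse ratios from 0.642 to 2.27. The largest ratio was that of Mouse1509, one of the slices with high choroid plexus markers.

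Sod2 encodes the mitochondrial manganese superoxide dismutase, which is driven by NF-kappaB as well as by oxidative stress (ENSMUSG00000006818, chr17:13006846-13040063, + strand). In T41B VEH mice it was 166, 149, 171 and 156 CPM in sham and 202, 238, 251 and 205 CPM in STIM slices (log2 difference 0.48, SE 0.10, adjusted p = 0.000747 by edgeR). T41B BD10-2 slices held 159.6, 176, 145, 142 and 141 CPM after sham and 274, 257, 226, 215 and 171 CPM after stimulation (log2 difference 0.58, SE 0.09, adjusted p = 1.1e-05 by edgeR). Of these STIM slices only that of Mouse1592, at 171 CPM, lay inside the sham range. WT slices had Sod2 at 193 ± 8.1 CPM (SD over 4 mice) after stimulation and 168 ± 11.4 CPM (SD over 4 mice) after sham under VEH (log2 difference 0.20, SE 0.10, adjusted p = 0.205 by edgeR). Under BD10-2 the WT values were 176 ± 3.86 CPM (SD over 3 mice) and 170.1 ± 6.13 CPM (SD over 3 mice) (log2 difference 0.05, SE 0.12, adjusted p = 0.86 by edgeR). The difference between genotypes in this response did not pass the test, as given with the interactions.

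Mt1 and Mt2 encode the metallothioneins expressed throughout the body and lie next to each other on the same strand (Mt2: ENSMUSG00000031762, chr8:94172664-94173568; Mt1: ENSMUSG00000031765, chr8:94179082-94180327), with 5513 bases between the end of Mt2 and the start of Mt1. In WT VEH mice Mt2 was 63.6, 46.3, 93.4 and 71.2 CPM in sham and 135, 109.9, 158 and 211 CPM in STIM slices (log2 difference 1.16, SE 0.20, adjusted p = 0.000164 by edgeR). T41B VEH slices held 97.6, 106, 134 and 135 CPM and 178, 211, 334 and 233 CPM (log2 difference 1.02, SE 0.20, adjusted p = 0.000437 by edgeR), and the groups did not overlap in either genotype. In WT BD10-2 mice Mt2 was 79.2, 82 and 65.6 CPM and 108, 127 and 159.6 CPM (log2 difference 0.80, SE 0.23, adjusted p = 0.0277 by edgeR), and in T41B BD10-2 mice 106, 126, 141, 104 and 137 CPM and 301, 338, 269, 271 and 214 CPM (log2 difference 1.18, SE 0.18, adjusted p = 9.61e-06 by edgeR). The WT BD10-2 call was lost when any of Mouse1565, Mouse1571, Mouse1586 or Mouse1590 was left out (0.66 to 0.94, adjusted p = 0.0656 to 0.137 by edgeR). It was also lost with mouse as a replicate block (0.54, adjusted p = 0.0838 by edgeR).

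Mt1 moved less than its neighbour. Its sham and STIM values were 97.5, 79.1, 108 and 111 CPM and 149, 119.9, 153 and 216 CPM in WT VEH mice (log2 difference 0.69, SE 0.16, adjusted p = 0.00275 by edgeR), without overlap. In T41B VEH mice Mt1 was 126, 171, 204 and 172 CPM and 201, 209.9, 284 and 227 CPM (log2 difference 0.45, SE 0.15, adjusted p = 0.0343 by edgeR). Here the sham slice of Mouse1553, at 204 CPM, reached into the STIM range, and the call was lost when any of Mouse1510, Mouse1551, Mouse1553 or Mouse1579 was left out (0.41 to 0.50, adjusted p = 0.0668 to 0.0901 by edgeR). WT BD10-2 slices held 114, 109 and 108 CPM and 133, 146 and 167 CPM, a difference that did not pass although the groups did not overlap (log2 difference 0.43, SE 0.18, adjusted p = 0.135 by edgeR). T41B BD10-2 slices held 155, 157, 208, 159 and 201 CPM after sham and 252, 325, 243, 251 and 246 CPM after stimulation (log2 difference 0.58, SE 0.14, adjusted p = 0.00227 by edgeR). Astrocyte markers, which include genes of the cells that make much of the brain's metallothionein, were called higher after stimulation for 4 of 8 genes in WT VEH, 4 in T41B VEH, 0 in WT BD10-2 and 4 in T41B BD10-2 mice by edgeR, with median log2 fold changes of 0.34, 0.37, 0.23 and 0.35. Their part in the metallothionein differences was not tested.

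The ratio of Mt2 to Mt1 CPM within a sample, examined after the levels had been seen, was higher in STIM than in sham slices in every combination of genotype and treatment. It was 0.687 ± 0.123 in sham and 0.956 ± 0.057 in STIM slices of WT VEH mice (SD, n = 4 each; exact two-sided permutation p = 0.0286, adjusted over 4 tests 0.0381). In T41B VEH mice it was 0.708 ± 0.0842 and 1.02 ± 0.119 (SD, n = 4 each; exact permutation p = 0.0286, adjusted 0.0381). WT BD10-2 mice had 0.686 ± 0.0732 and 0.879 ± 0.0711 (SD, n = 3 each; exact permutation p = 0.1, adjusted 0.1). In T41B BD10-2 mice the ratio was 0.700 ± 0.0575 and 1.06 ± 0.12 (SD, n = 5 each; exact permutation p = 0.00794, adjusted 0.0318). Each of these p-values is the smallest that its design can give, so WT BD10-2 mice could not reach 0.05. They also take the 2 slices of a mouse as independent. With the mouse as a replicate block, exact sign flips of the within-mouse differences gave p = 0.125 in WT VEH, 0.125 in T41B VEH, 0.5 in WT BD10-2 and 0.125 in T41B BD10-2 mice (4, 4, 2 and 4 pairs), which are again the smallest possible, so no combination passes when paired. Over all 14 mice the within-mouse log2 difference averaged 0.49, from 0.19 to 0.84 (exact paired permutation p = 0.000122, the smallest possible). No sham and STIM ranges overlapped within a combination, and the ratio was higher in the stimulated slice in 14 of 14 mice. Mt1 and Mt2 are similar in sequence, and how reads were shared between them is part of the authors' estimate.

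**Figure D3:**
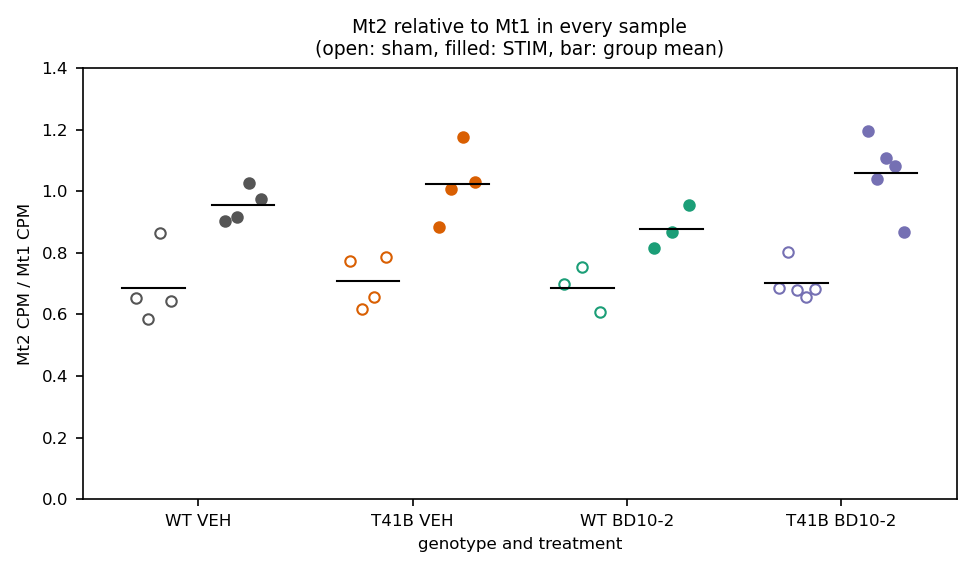
Mt2 CPM divided by Mt1 CPM in every sample, by genotype and treatment; open points are sham slices, filled points stimulated slices and bars group means. Sham means lie at 0.686 to 0.708 and STIM means at 0.879 to 1.06, with no overlap inside a combination.

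In the 14 mice with both slices, the stimulated slice was higher in 14 of 14 for Hmox1, Slc7a11, Gclc, Gclm, Txnrd1, Srxn1, Mt1 and Mt2, and in 13 of 14 for Sod2. Hmox1 ratios spread most, from 3.82 in Mouse1592 to 23.3 in Mouse1509, with a median of 12.2. Slc7a11 ran from 4.27 in Mouse1592 to 13.7 in Mouse1553, with a median of 5.43. The median ratio of Hmox1 was 15.2 in the 6 WT mice and 9.61 in the 8 T41B mice, while that of Slc7a11 was 4.71 and 6.15. Mt2 had a median ratio of 2.06 and Mt1 of 1.47, and Sod2 medians were 1.1 in WT and 1.51 in T41B mice. Microglial markers moved the other way: 6, 7, 7 and 6 of 8 were called lower after stimulation in WT VEH, T41B VEH, WT BD10-2 and T41B BD10-2 mice, and none was higher. In WT VEH slices, 8 of 9 choroid plexus markers were called higher. Without the 3 samples high in these markers, 8 of the 10 genes in WT VEH and 9 in T41B VEH mice were called higher with stimulation.

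**Figure D4:**
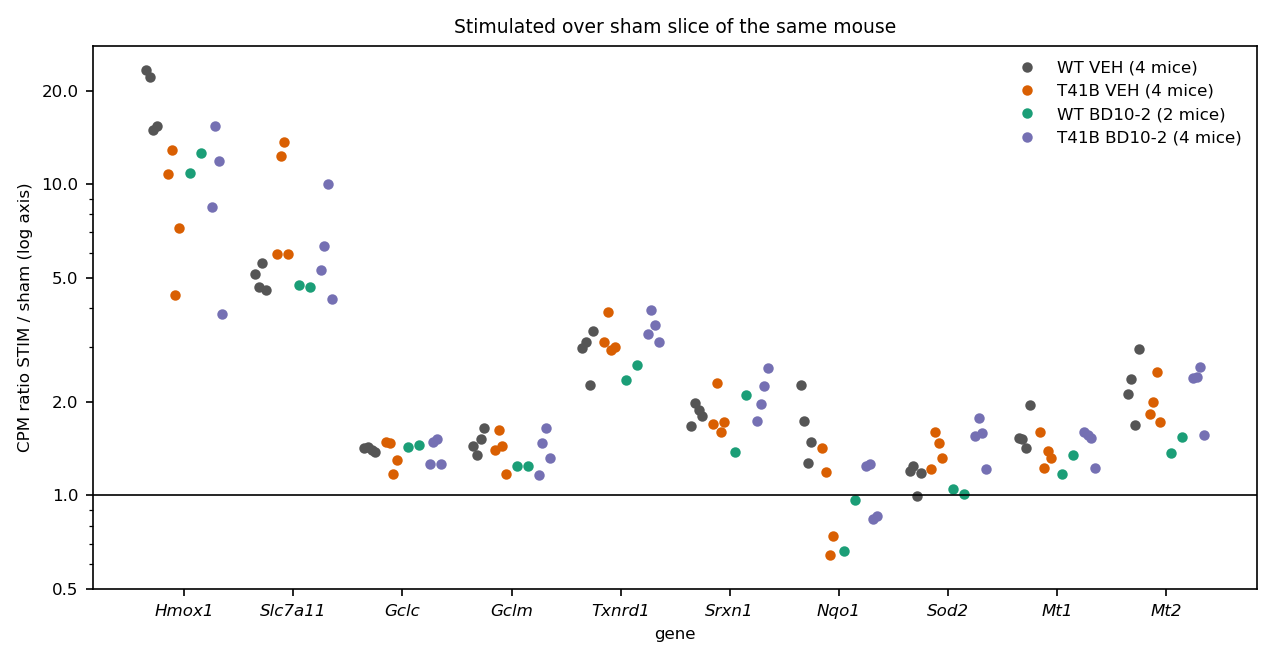
CPM of the stimulated slice divided by CPM of the sham slice of the same mouse, on a log axis, for 14 mice coloured by genotype and treatment; the line marks a ratio of 1. Hmox1 points span 3.82 to 23.3, those of Gclc and Gclm stay between 1.16 and 1.65, and Nqo1 points lie on both sides of the line.

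The second comparison asked how T41B slices differed from WT slices under each treatment and stimulation. Mt1 was called higher in T41B mice in all 4 settings, Mt2 in 3, Slc7a11 and Txnrd1 in 2, and Hmox1 and Sod2 in 1. None of the 10 genes was lower. In VEH sham slices Hmox1, Mt1 and Mt2 were called higher, 3 of 10, where 5% of all genes passed as higher and 1.24% as lower. In VEH STIM slices 3 of 10 were higher, namely Slc7a11, Txnrd1 and Mt1 (4.74% of all genes higher, 1.05% lower). BD10-2 sham slices gave 2 of 10, Mt1 and Mt2 (4.29% higher, 1.14% lower). BD10-2 STIM slices gave 5 of 10, Slc7a11, Txnrd1, Sod2, Mt1 and Mt2 (8.2% higher, 2.36% lower). Medians of the 10 log2 fold changes were 0.27, 0.37, 0.29 and 0.70 in that order, beside 0.00, -0.03, 0.01 and -0.02 over all genes. The 8 batches of the labels bear on this comparison. Under VEH, 2 batches held both genotypes. Under BD10-2, batches D and I held sham slices of both genotypes, and only batch I held STIM slices of both. With batch as a term none of the 10 genes passed in VEH sham or VEH STIM slices, while 2 and 5 passed in BD10-2 sham and STIM slices. These were not all the same genes as without that term. Hmox1 was gained in both, while Mt2 was lost in BD10-2 sham and Slc7a11 in BD10-2 STIM slices.

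**Figure D5:**
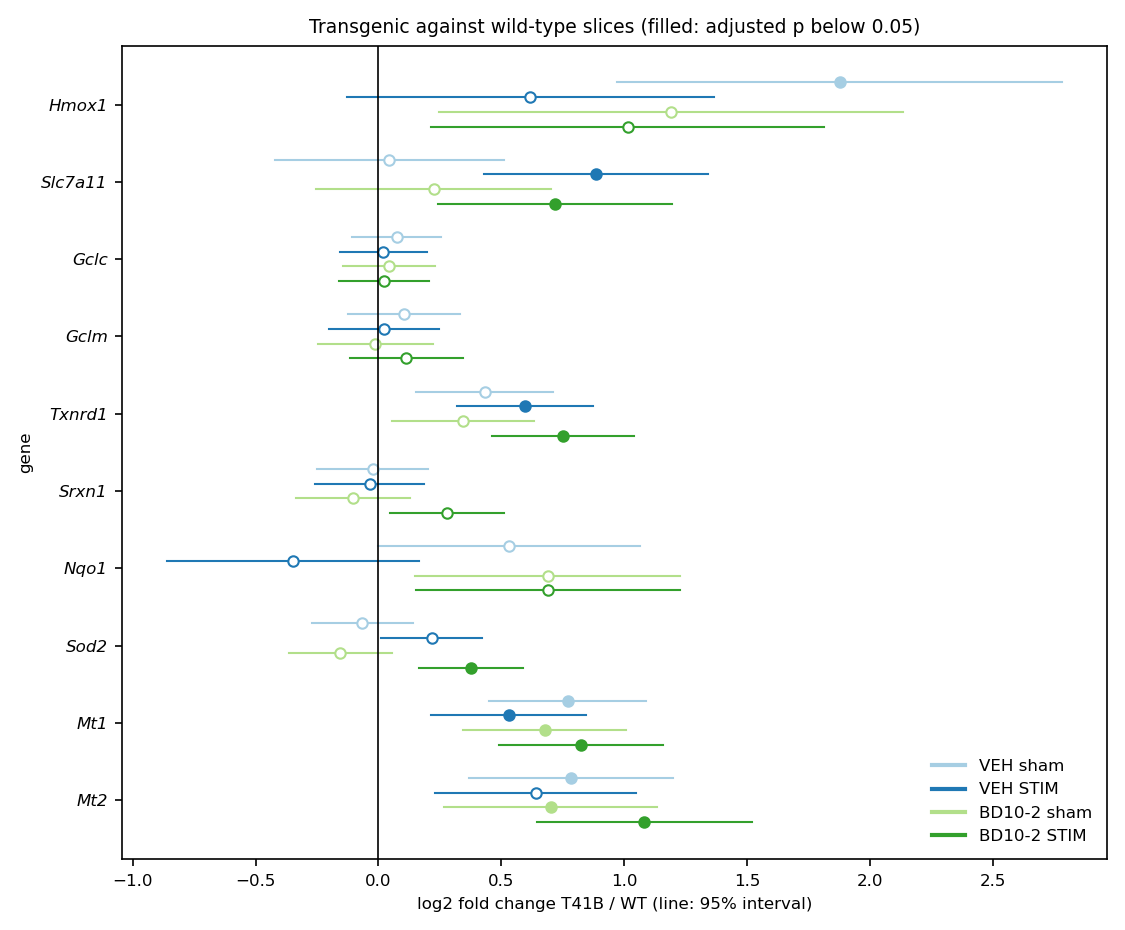
Log2 fold change of T41B over WT slices for each gene, with 95% intervals, in the 4 combinations of treatment and stimulation; filled points have an edgeR adjusted p below 0.05 without a batch term. Mt1 is filled in all 4 (0.53 to 0.82), Txnrd1 and Slc7a11 in the STIM settings only, and Gclc and Gclm lie between -0.01 and 0.11.

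Mt1 was the member called in all 4 genotype comparisons (log2 difference 0.77, SE 0.16, adjusted p = 0.00193 by edgeR in VEH sham slices; log2 difference 0.53, SE 0.15, adjusted p = 0.0356 by edgeR in VEH STIM; log2 difference 0.68, SE 0.16, adjusted p = 0.00997 by edgeR in BD10-2 sham; log2 difference 0.82, SE 0.16, adjusted p = 0.000714 by edgeR in BD10-2 STIM). The WT and T41B samples listed above overlapped in VEH STIM slices only. Within the batches that held both genotypes, T41B exceeded WT Mt1 in 4 of 4 batches of sham slices (by 0.22 to 0.89, log2 scale). The same held in 3 of 3 batches of STIM slices (0.07 to 0.82). Such counts of batches, here and below, rest on few mice. Each batch set 1 T41B slice against 1 WT slice, except batch I (1 against 2 sham slices, 2 against 2 STIM slices). The sham and STIM counts share mice, so they are not independent. With batch as a term the value was 0.43 in VEH sham (adjusted p = 0.192 by edgeR) and 0.23 in VEH STIM slices (adjusted p = 0.397 by edgeR), 0.59 in BD10-2 sham (adjusted p = 0.0127 by edgeR) and 0.74 in BD10-2 STIM slices (adjusted p = 0.00113 by edgeR). The VEH STIM call was also lost without any of Mouse1509, Mouse1513, Mouse1522, Mouse1551, Mouse1553 or Mouse1579 (0.41 to 0.57, adjusted p = 0.0581 to 0.148 by edgeR), and the BD10-2 sham call without Mouse1571 or Mouse1590 (0.67 and 0.66, adjusted p = 0.0571 and 0.0568 by edgeR).

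Mt2 was higher in T41B mice in VEH sham (log2 difference 0.78, SE 0.20, adjusted p = 0.017 by edgeR), BD10-2 sham (log2 difference 0.70, SE 0.21, adjusted p = 0.048 by edgeR) and BD10-2 STIM slices (log2 difference 1.08, SE 0.21, adjusted p = 0.000704 by edgeR), and stood just outside the threshold in VEH STIM slices (log2 difference 0.64, SE 0.20, adjusted p = 0.0549 by edgeR). The last passed with DESeq2 (0.67, adjusted p = 0.0201). Within batches Mt2 was higher in T41B slices in 4 of 4 sham (0.06 to 1.05) and 3 of 3 STIM comparisons (0.14 to 1.2). With batch as a term its VEH sham value was 0.39 (adjusted p = 0.519 by edgeR) and its BD10-2 sham value 0.56 (adjusted p = 0.1 by edgeR). The VEH sham call was lost without Mouse1509, Mouse1513 or Mouse1579 (0.64 to 0.75, adjusted p = 0.0525 to 0.0682 by edgeR). The BD10-2 sham call was lost without any of Mouse1563, Mouse1564, Mouse1565, Mouse1570, Mouse1571, Mouse1590 or Mouse1592 (0.61 to 0.76, adjusted p = 0.0516 to 0.217 by edgeR). Microglial markers were called higher in T41B mice for 7, 4, 6 and 8 of 8 genes, and astrocyte markers for 3, 2, 3 and 6 of 8, in VEH sham, VEH STIM, BD10-2 sham and BD10-2 STIM slices. What part these markers have in the differences of the 10 genes was not tested.

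Hmox1 was higher in T41B than in WT mice in VEH sham slices (log2 difference 1.88, SE 0.44, adjusted p = 0.00803 by edgeR), where the 2 groups did not overlap. The size of this difference rests on Mouse1553: without it the value was 1.23 (adjusted p = 0.111 by edgeR), and with batch as a term it was 0.84 (adjusted p = 0.307 by edgeR). In BD10-2 sham slices every T41B sample was above every WT sample of Hmox1, at 8.16 ± 1.07 CPM (SD over 5 mice) against 3.5 ± 0.645 CPM (SD over 3 mice), which did not pass (log2 difference 1.19, SE 0.46, adjusted p = 0.142 by edgeR) but did with batch as a term (1.14, adjusted p = 0.0418 by edgeR). In all 4 batches with both genotypes, T41B sham slices held more Hmox1, by 0.26 to 1.17 on the log2 scale. After stimulation the value was 0.62 under VEH (adjusted p = 0.409 by edgeR). T41B slices were lower in both VEH batches that held the 2 genotypes (differences of -0.17 and -0.27), and the value became -0.39 with batch as a term (adjusted p = 0.459 by edgeR). In BD10-2 STIM slices it was 1.01 (adjusted p = 0.101 by edgeR), and 0.90 with batch as a term (adjusted p = 0.036 by edgeR). Without Mouse1592 the BD10-2 STIM difference was 1.25 and passed (adjusted p = 0.018 by edgeR).

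Slc7a11 and Txnrd1 were called higher in T41B mice in both STIM settings. For Slc7a11 the log2 fold change was 0.89 in VEH STIM slices (SE 0.22, adjusted p = 0.0128 by edgeR) and 0.72 in BD10-2 STIM slices (SE 0.23, adjusted p = 0.0447 by edgeR), against 0.04 (95% interval -0.42 to 0.51) and 0.23 (95% interval -0.25 to 0.70) in VEH and BD10-2 sham slices. Txnrd1 gave 0.60 (SE 0.13, adjusted p = 0.00514 by edgeR) and 0.75 (SE 0.14, adjusted p = 0.000417 by edgeR) in STIM slices, and 0.43 (adjusted p = 0.0559 by edgeR) and 0.34 (adjusted p = 0.169 by edgeR) in VEH and BD10-2 sham slices. The Txnrd1 difference in VEH sham slices passed in 6 alternatives, among them DESeq2 (0.43, adjusted p = 0.0355) and leaving out Mouse1510, Mouse1522 or Mouse1579 (0.47 to 0.55, adjusted p = 0.0248 to 0.0431 by edgeR). Its response to stimulation differed between genotypes under VEH by 0.16 (95% interval -0.23 to 0.56), which did not pass (adjusted p = 0.812 by edgeR). T41B was higher in 3 of 3 batches of STIM slices for both genes, by 0.37 to 0.76 for Slc7a11 and 0.15 to 0.67 for Txnrd1. With batch as a term the VEH STIM values were 0.75 for Slc7a11 (adjusted p = 0.079 by edgeR) and 0.30 for Txnrd1 (adjusted p = 0.103 by edgeR). The BD10-2 STIM value of Slc7a11 was then 0.59 (adjusted p = 0.101 by edgeR), and Txnrd1 still passed there. Leaving out Mouse1551 ended both VEH STIM calls (0.69 for Slc7a11, adjusted p = 0.106 by edgeR; 0.48 for Txnrd1, adjusted p = 0.0505 by edgeR), as did leaving out the samples high in choroid plexus markers (0.85 and 0.54, adjusted p = 0.0963 and 0.0772 by edgeR). The BD10-2 STIM call of Slc7a11 was lost without any of Mouse1563, Mouse1564, Mouse1565, Mouse1570, Mouse1571, Mouse1572 or Mouse1586 (0.63 to 0.83, adjusted p = 0.0513 to 0.188 by edgeR).

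Sod2 was higher in T41B mice in BD10-2 STIM slices (log2 difference 0.38, SE 0.10, adjusted p = 0.0164 by edgeR) and in 3 of 3 batches of STIM slices, by 0.13 to 0.33. That call was lost without Mouse1564, Mouse1565, Mouse1571 or Mouse1586 (0.33 to 0.39, adjusted p = 0.053 to 0.0871 by edgeR). In sham slices Sod2 was lower in T41B than in WT slices in 4 of 4 batches, but neither sham comparison passed (-0.07 and -0.16, adjusted p = 0.735 and 0.434 by edgeR). Gclc, Gclm, Srxn1 and Nqo1 were not called in any genotype comparison. The 95% intervals of the Gclc difference ran from -0.16 to 0.25 over the 4 settings, and those of Gclm from -0.24 to 0.35. Srxn1 reached 0.28 (95% interval 0.05 to 0.51) in BD10-2 STIM slices and was lower in T41B slices in 4 of 4 batches of sham slices. Nqo1 was 2.91 ± 0.557 CPM (SD over 5 mice) in T41B and 1.82 ± 0.14 CPM (SD over 3 mice) in WT BD10-2 sham slices, without overlap (log2 difference 0.69, SE 0.26, adjusted p = 0.135 by edgeR), and its BD10-2 STIM difference was 0.69 (95% interval 0.15 to 1.23). Without Mouse1586 that STIM difference was 1.07 and passed (adjusted p = 0.0228 by edgeR).

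Ordered by group mean, the levels of the 10 genes fell into few distinct steps. Mean Hmox1 was highest in T41B VEH STIM slices (108 ± 52.4 CPM), followed by T41B BD10-2 STIM (88 ± 39.96), WT VEH STIM (70.6 ± 12.6) and WT BD10-2 STIM slices (43.5 ± 5.13). The first 3 of these overlapped with their neighbour, while all WT BD10-2 STIM values were below the WT VEH STIM values. Sham means of Hmox1 ran from 14.5 CPM in T41B VEH through 8.16 in T41B BD10-2 and 3.95 in WT VEH to 3.5 in WT BD10-2 slices, and the break without overlap was between the genotypes. Txnrd1 fell into T41B STIM, WT STIM, T41B sham and WT sham groups in that order, with breaks between neighbours, although 1 WT VEH sham slice (62.1 CPM) reached into the T41B sham range. Slc7a11, Gclc, Gclm and Srxn1 had a single break without overlap between the ordered groups, that between STIM and sham, although for Gclm the lowest STIM sample (38.9 CPM) was below the highest sham sample (39.9 CPM). For Mt1 both T41B sham groups (176 and 168 CPM) ranked above both WT STIM groups (160 and 149 CPM), with overlap between neighbours, and the WT sham groups were lowest at 110.1 and 98.8 CPM after a break. Mt2 kept STIM above sham groups in mean, with its break between the T41B and the WT sham groups. Sod2 in T41B VEH STIM slices lay just above WT VEH STIM slices without overlap, and the latter lay above WT BD10-2 STIM slices, which overlapped with sham groups. T41B BD10-2 STIM slices had the highest Sod2 mean, but that of Mouse1592 (171 CPM) was below every WT VEH STIM slice. Nqo1 had no break, as each group overlapped with the next.

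The third comparison asked whether BD10-2 differed from VEH. None of the 10 genes passed in WT sham, WT STIM, T41B sham or T41B STIM slices, and 0% of all genes did in each (edgeR; with DESeq2 also 0 of the 10). At an unadjusted p under 0.05, edgeR gave 0 of the 10 in WT sham, 1 in WT STIM, 1 in T41B sham and 0 in T41B STIM slices, where 1.92%, 5.6%, 2.21% and 3.9% of all genes did so. The gene in WT STIM slices was Nqo1, 1.82 ± 0.729 CPM with BD10-2 and 3.16 ± 0.772 CPM with VEH, without overlap (log2 difference -0.77, SE 0.27, adjusted p = 0.806 by edgeR). In T41B sham slices it was Hmox1, at 8.16 ± 1.07 and 14.5 ± 11 CPM (log2 difference -0.84, SE 0.38, adjusted p = 1 by edgeR). WT STIM slices also had lower Hmox1 with BD10-2, 41.6, 49.3 and 39.6 CPM against 67.8, 62.2, 89.1 and 63.3 CPM, again without overlap and not passing (log2 difference -0.70, SE 0.40, adjusted p = 0.882 by edgeR). The intervals were narrowest for Gclc, whose 4 differences lay inside -0.22 to 0.18. For Slc7a11 the difference was 0.37 (95% interval -0.08 to 0.81) in T41B sham and -0.15 (95% interval -0.58 to 0.27) in T41B STIM slices. Each batch held only 1 treatment, so treatment and batch cannot be told apart.

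Interactions tested whether the stimulation response itself differed between genotypes or between treatments. No member passed in any of the 4, nor did any gene, 0% in each, by edgeR, and DESeq2 also called 0 of the 10. Under VEH, 3 of the 10 had an unadjusted p under 0.05, where 8.64% of all genes had. These were Hmox1, with a smaller response in T41B than in WT mice (-1.26, 95% interval -2.43 to -0.09, adjusted p = 0.543 by edgeR), Slc7a11, with a larger one (0.84, 95% interval 0.19 to 1.49, adjusted p = 0.507 by edgeR), and Nqo1 (-0.88, 95% interval -1.62 to -0.14, adjusted p = 0.521 by edgeR). Under BD10-2, 3 of 10 had one (4.35% of all genes): Sod2 (0.53, 95% interval 0.23 to 0.83, adjusted p = 0.443 by edgeR), Srxn1 (0.38) and Txnrd1 (0.41). Leaving out Mouse1592 made the Sod2 interaction 0.60 and brought it past the threshold (adjusted p = 0.0223 by edgeR). Between treatments, 0 of the 10 had an unadjusted p under 0.05 in WT mice (1.74% of all genes) and 0 in T41B mice (2.71%). The widest of these intervals, that of Hmox1 in WT mice, was -0.54 (95% interval -1.86 to 0.77), so that a sizeable difference in its response to BD10-2 was not detectable with these samples.

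Other genes of the same pathways were followed in lists that held 89 genes, of which 87 were tested. After stimulation 27 of the 87 were higher and 1 lower in WT VEH, 28 and 6 in T41B VEH, 18 and 1 in WT BD10-2 and 33 and 3 in T41B BD10-2 mice, with median log2 fold changes of 0.27, 0.06, 0.15 and 0.19 beside the medians over all genes given above. Over all genes, the shares higher and lower were 8.21% and 4.1%, 11.7% and 9.82%, 6.29% and 2.58%, and 13.3% and 9.52%. Counts of lower genes depended on the fit: with mouse as a replicate block they were 2 in WT VEH, 10 in T41B VEH and 5 in T41B BD10-2 mice, and when the fit held only the groups compared they were 3, 2 and 5. Without Mouse1551 the T41B VEH counts were 17 higher and 2 lower, and without Mouse1571 the WT BD10-2 count was 9 higher. The lists are given in the same order of mice. Of 10 genes that regulate NRF2, 4, 6, 3 and 7 were higher and none was lower. Nfe2l2, which encodes NRF2, rose in all 4 comparisons (log2 fold changes 0.81 to 1.24), and so did Bach1, which encodes a repressor that competes at the same elements (0.86 to 1.23), and Sqstm1, which encodes the autophagy adaptor p62 that binds KEAP1 (0.75 to 0.89). Keap1 was called in none (-0.09 to 0.07). In the glutathione and cystine list of 21 genes, 5, 4, 3 and 5 were higher and 0, 1, 0 and 0 lower. Slc3a2, the partner chain of xCT, rose in all 4 (0.65 to 1.14), as did Gsr, glutathione reductase (0.54 to 0.64), and Chac1, which degrades glutathione (1.2 to 1.47). Of the 11 thioredoxin and peroxiredoxin genes, Prdx1 (0.47 to 0.71) and Sesn2 (0.94 to 1.08), both linked to peroxide defence, rose in all 4. The list had 3, 2, 2 and 3 higher and 0, 1, 0 and 0 lower. Among 6 genes that supply NADPH, the reducing power for these systems, Pgd of the pentose phosphate pathway rose in all 4 (0.61 to 0.72), within 2, 1, 1 and 1 of the list. In lists this short, a count of 1 or 2 set against those shares is no result about the list. Several WT BD10-2 calls rested on single mice: those of Gsr (0.52 to 0.57, adjusted p = 0.0549 to 0.08 by edgeR) and Prdx1 (0.56 to 0.64, adjusted p = 0.0785 to 0.0996 by edgeR) were lost without Mouse1565, Mouse1571 or Mouse1590, and that of Pgd without Mouse1565 or Mouse1571 (0.54 to 0.6, adjusted p = 0.0572 to 0.0765 by edgeR). Chac1 (1.18, adjusted p = 0.051 by edgeR) and Slc3a2 (0.63, adjusted p = 0.0534 by edgeR) lost theirs without Mouse1571, and Bach1 (0.69, adjusted p = 0.052 by edgeR) without Mouse1590. In T41B VEH mice Prdx1 no longer passed without Mouse1510 or Mouse1551 (0.37 to 0.38, adjusted p = 0.0688 to 0.116 by edgeR). With mouse as a replicate block Gsr was 0.49 in WT BD10-2 mice (adjusted p = 0.0777 by edgeR).

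Among the 11 tested heme and iron genes, 3, 5, 3 and 5 rose and 0, 1, 0 and 1 fell after stimulation. Ftl1, the ferritin light chain (0.56 to 1.04), and Lcn2, a siderophore-binding protein (2.23 to 2.65), were higher in all 4 comparisons. Hpx was also called higher in all 4, but averaged only 0.67 CPM over all samples. In the zinc and metal list of 8 genes, 3, 4, 2 and 3 were higher and 1, 1, 1 and 2 lower. Slc39a14, a zinc and manganese importer (0.58 to 1.3), and Cp, the copper ferroxidase ceruloplasmin (1.25 to 1.99), rose in all 4. Slc30a10, a manganese exporter, fell in all 4 (-0.58 to -0.25). Mt3, the metallothionein of brain, was not called in any comparison (-0.09 to 0.15 with stimulation and 0.28 to 0.51 with genotype). Mt3 passed as higher in T41B mice in VEH sham slices without Mouse1510 or Mouse1524 (0.64, adjusted p = 0.0116 to 0.0218 by edgeR), in VEH STIM slices without Mouse1524 (0.55, adjusted p = 0.033 by edgeR), and in BD10-2 sham slices when the fit held only the groups compared (0.43, adjusted p = 0.0331 by edgeR). Sod1, the cytosolic superoxide dismutase, was not called in them either (0.04 to 0.29 and 0.02 to 0.27). Of 4 genes for superoxide and peroxide enzymes, 0, 0, 0 and 1 rose with stimulation by edgeR. A further list held 8 genes drawn up as other NRF2 targets, of which 5, 3, 2 and 3 were higher and 0, 1, 0 and 0 lower. In it Gdf15, a stress-induced cytokine (3.28 to 5.06), and Trib3, a target of the integrated stress response (1.74 to 3.64), rose in all 4. These fold changes start from low levels, with sham group means of 0.397 to 1.55 CPM for Gdf15 and 0.25 to 1.01 CPM for Trib3. Both are also induced by other stress pathways, as are Chac1, Sesn2 and Slc7a11. Of 8 tested oxidase and nitric oxide synthase genes, 2, 3, 2 and 5 were higher and 0, 1, 0 and 0 lower. Among them Cybb, the catalytic subunit of the phagocyte NADPH oxidase, rose in all 4 (2.44 to 3.69), although most microglial markers fell. Sham group means were also low for Cybb, at 0.371 to 3.17 CPM, and for Lcn2, at 0.303 to 2.09 CPM. Calls that 1 mouse decided were those of Slc39a14 in WT VEH mice without Mouse1509 (0.56, adjusted p = 0.0777 by edgeR) and in WT BD10-2 mice without Mouse1565, Mouse1571, Mouse1586 or Mouse1590 (0.55 to 0.62, adjusted p = 0.0754 to 0.219 by edgeR). Trib3 lost its call in T41B VEH mice without Mouse1551 (1.44, adjusted p = 0.0705 by edgeR) and in WT BD10-2 mice without Mouse1565 or Mouse1571 (2.32 to 2.39, adjusted p = 0.0599 to 0.0889 by edgeR). In T41B VEH mice, Ftl1 lost its call without Mouse1510 or Mouse1551 (0.46 to 0.47, adjusted p = 0.0991 to 0.116 by edgeR), and Slc30a10 without Mouse1510, Mouse1551 or Mouse1553 (-0.26 to -0.21, adjusted p = 0.0629 to 0.122 by edgeR). That of Slc30a10 was also lost in 5 other alternatives, among them DESeq2, no filter on low counts and leaving out the samples high in choroid plexus markers (-0.26 to -0.22, adjusted p = 0.0504 to 0.193). A replicate block by mouse ended the WT BD10-2 call of Slc39a14 (0.56, adjusted p = 0.161 by edgeR) and brought Sod1 past the threshold in WT VEH mice (0.26, adjusted p = 0.0291 by edgeR).

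Between genotypes, 18 of the 87 were higher and 1 lower in T41B mice in VEH sham, 13 and 0 in VEH STIM, 13 and 1 in BD10-2 sham and 24 and 0 in BD10-2 STIM slices, with medians of 0.29, 0.07, 0.22 and 0.32. With batch as a term, 5 were higher in VEH sham and 8 in VEH STIM slices. When the fit held only the groups compared, 10 were higher in VEH sham and 26 in BD10-2 sham slices. The VEH sham count was 10 without Mouse1509 or Mouse1551 and 29 without Mouse1524, and the BD10-2 sham count was 7 without Mouse1590. The 8 tested oxidase and nitric oxide synthase genes gave 5, 6, 5 and 6 higher, the 21 glutathione and cystine genes 3, 1, 1 and 6, and the 10 NRF2 regulators 2, 3, 2 and 4. Over all genes the share higher was 5%, 4.74%, 4.29% and 8.2%, so 1 of 21 in VEH STIM and in BD10-2 sham slices is near that share. Cybb (2.59 to 3.19), Cyba (1.35 to 1.87), Ncf1 (0.99 to 1.42) and Ncf4 (1.64 to 2.22) were higher in all 4 settings, beside the microglial markers given above. They encode subunits of the phagocyte oxidase, which microglia express. WT group means were low for Cybb (0.371 to 3.74 CPM), Ncf4 (0.459 to 0.845 CPM) and Lcn2 (0.303 to 2.02 CPM). Nfe2l2 was higher in all 4 as well (0.57 to 0.95). Maff, a small partner of NRF2 (0.46 to 0.89), Gpx1, a glutathione peroxidase (0.19 to 0.85), Prdx6, a peroxiredoxin abundant in astrocytes (0.43 to 0.74), Lcn2 (1.69 to 2.67) and Ephx1, an epoxide hydrolase (0.11 to 0.69), were higher in 3 of the 4. With batch as a term, the VEH sham calls of Maff (0.39, adjusted p = 0.117 by edgeR), Gpx1 (0.51, adjusted p = 0.096 by edgeR), Prdx6 (0.46, adjusted p = 0.0617 by edgeR), Ephx1 and Ncf4 were lost, as was the VEH STIM call of Nfe2l2 (0.35 to 0.51 with batch or without the samples high in choroid plexus markers, adjusted p = 0.15 to 0.244 by edgeR). Single mice also decided calls. Nfe2l2 did not pass in VEH STIM slices without Mouse1513 or Mouse1551 (0.45 to 0.54, adjusted p = 0.0561 to 0.0779 by edgeR) or in BD10-2 sham slices without Mouse1590 or Mouse1592 (0.44 to 0.51, adjusted p = 0.0554 to 0.195 by edgeR). Gpx1 lost its BD10-2 calls without any of 5 mice in sham (Mouse1564, Mouse1565, Mouse1571, Mouse1590 or Mouse1592; adjusted p = 0.0643 to 0.179 by edgeR) and any of 5 in STIM slices (Mouse1564, Mouse1565, Mouse1570, Mouse1571 or Mouse1586; adjusted p = 0.0578 to 0.135 by edgeR). Ephx1 lost calls in VEH sham slices without Mouse1509 or Mouse1551 and in BD10-2 sham slices without Mouse1590 (0.34 to 0.46, adjusted p = 0.0574 to 0.118 by edgeR). Ncf1 lost its VEH STIM call without Mouse1509, Mouse1522 or Mouse1579 (0.83 to 0.9, adjusted p = 0.0578 to 0.0731 by edgeR). Ncf4 lost its VEH sham call without Mouse1509, Mouse1551 or Mouse1553 (1.45 to 1.47, adjusted p = 0.0681 to 0.0786 by edgeR) and its BD10-2 sham call without Mouse1565 or Mouse1590 (1.35 to 1.66, adjusted p = 0.0541 to 0.126 by edgeR).

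For each gene, the non-member genes most like it were found by Pearson correlation of log2(CPM + 1) over the 32 samples, among 16158 genes averaging at least 1 CPM. The samples share mice, batches and the stimulation contrast, so a high value mainly describes a common pattern over the groups. Hmox1 was closest to Gbp2 (r = 0.97), Mthfd2 and Rsad2, and Slc7a11 to Tnc (0.98), Slc11a2 and Pvr. Txnrd1 had the highest value of any of the 10, with Fas (0.99), followed by Tnfrsf1b and Elf1. Gclc was closest to Hexim1 (0.95), Impdh2 and Atf4, Gclm to Crot (0.92), Yap1 and Fosl1, and Srxn1 to Tars (0.93), Angptl4 and Gdf15. Sod2 matched Dcp2 (0.95), Pikfyve and Aida. Mt1 matched Szrd1 (0.96), Ltbr and the astrocyte-rich gene Clu, and Mt2 matched Gadd45g (0.97), Bag3 and Cnn3. For Nqo1 the closest gene reached 0.75, with Vamp8, followed by Efemp2 and Igfbp2.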

How the data were processed

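The values deposited by the authors are expected counts from RSEM for each gene, estimates with decimals that carry no scaling to library size. Per the labels' protocols, ribosomal RNA was removed from 200 ng of total RNA and a stranded kit was used. The submitters' processing notes name cutadapt 1.8.1, STAR 2.7.6a, RSEM 1.3.1, featureCounts 1.6 and SAMtools 1.11, and the builds GRCm38.p6 and mm10. Neither the gene annotation's release nor how strand was used in counting is given in the sources used here, so genes that overlap others are uncertain.

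The 36 libraries were grouped by their labels. For 4 combinations of mouse and stimulation, 2 libraries carried the same labels. Their counts differed by more than sampling noise (chi-square per degree of freedom 8.1 to 31.8) and were summed, which gave 32 samples. Other pairs of libraries within the same groups gave 8.95 to 77.0, and for Mouse1565 sham slices the same-label value (31.8) was above all others of its group (up to 29.2). The labels do not say whether these libraries came from 1 slice or from 2. Expected counts were rounded. Genes were kept with edgeR's filterByExpr (minimum count 10), scaled by TMM (factors 0.91 to 1.06) and tested with edgeR 4.0.16 (R 4.3.3) in a quasi-likelihood fit of all 8 groups without covariates. P-values were adjusted by Benjamini-Hochberg over 19477 genes, and a gene was called at an adjusted p under 0.05. Fold changes carry standard errors (SE) and 95% intervals. The SE was calculated back from each fold change and its F statistic, and the interval from that SE. Both are unreliable where a fold change is very small. CPM were computed from the scaled counts, and means are over mice. DESeq2 1.42.0, other filters, a batch term and leaving out mice were alternatives.

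The labels name the mouse of each slice, so slices of a mouse are paired. Same-mouse slices deviated from their group means together (mean r = 0.29, 0.05 to 0.55, over 14 pairs, against -0.08 over 52 other pairs). The fit without the mouse was kept as the main one.

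The 10 genes and the gene lists were chosen with earlier results of these data known. The text names all 10, and list genes averaging at least 1 CPM that were called in 4 of 4 stimulation or at least 3 of 4 genotype comparisons. It also names Nfe2l2, Keap1, Bach1, Mt3 and Sod1, and the 3 genes most like each of the 10. A gene that this rule names is not reported here. Symbols matched 55154 of 55421 identifiers. Gene positions and exon lengths are from GENCODE M21, on GRCm38.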

Additional observations from a re-analysis of the deposited data

Results flagged for a closer look

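In 60 checks of a gene within a group of 4 or 5 samples, 3 had a sample set far from the rest, where chance flags about 1 in 20 groups. Nqo1 was 4.31 CPM in the stimulated slice of WT VEH Mouse1509, and 2.64 to 2.86 CPM in the other slices of that group. Choroid plexus markers were at 1237 CPM in that slice, and their part in its Nqo1 level was not tested. Mt1 was 325 CPM in the stimulated slice of T41B BD10-2 Mouse1564, against 243 to 252 CPM in the others. Gclc was 38.4 CPM in the sham slice of T41B BD10-2 Mouse1563, below the 42.4 to 44.0 CPM of the others.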

How the results depend on the processing

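No result changed direction among called values. The number of the 10 genes called in the stimulation comparisons stayed within 1.5 times the reported number in all settings. With mouse as a replicate block 9, 9, 5 and 9 were called in WT VEH, T41B VEH, WT BD10-2 and T41B BD10-2 mice, and the only member calls that changed were Mt2 in WT BD10-2 mice (lost) and Nqo1 in WT VEH mice (gained). Genotype counts were less stable. With batch as a term, 0 were called in VEH sham and 0 in VEH STIM slices. When the fit held just the compared groups, it called 1 in VEH sham, 4 in BD10-2 sham and 3 in BD10-2 STIM slices. Without the samples high in choroid plexus markers, 0 were called in VEH STIM slices. The cause was not tested. Leaving out each mouse gave 2 to 4 in VEH sham, 0 to 4 in VEH STIM, 0 to 2 in BD10-2 sham and 3 to 6 in BD10-2 STIM slices. For the interaction of genotype and stimulation under BD10-2 it gave 0 to 1. The lowest genotype counts came without Mouse1551 (0, VEH STIM), Mouse1571 or Mouse1590 (0, BD10-2 sham), and Mouse1564, Mouse1565 or Mouse1571 (3, BD10-2 STIM). Treatment comparisons gave 0 in each setting run for them. Batch as a term and mouse as a replicate block were not run there, since each batch and each mouse had 1 treatment. Groups of 3 to 5 mice, and only 23 to 123 counts for Nqo1, limit what could be detected. All alternatives were planned except those for the Mt2 to Mt1 ratio, which were chosen after the data had been seen. The ratio was higher after stimulation without any 1 mouse, although 3 mice a group cannot reach an exact permutation p under 0.05, and no combination passed in the paired test (smallest exact p 0.125).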
